A study of Mus musculus with 14 samples.

Results

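The effect of the IL-4 receptor on miRNAs was taken across 2 ways of eliciting peritoneal macrophages, by setting all 7 wild type arrays against all 7 IL-4R KO arrays with the elicitation as a second factor. All 14 arrays of the series entered, and all 343 probes named for mouse miRNAs were tested. The mice were BALB/c, either wild type or lacking the IL-4 receptor (IL-4R KO). Macrophages were elicited for 3 days with intraperitoneal thioglycollate, a sterile irritant (3 wild type and 3 IL-4R KO arrays), or for 21 days with implanted Brugia malayi, a filarial nematode (4 wild type and 4 IL-4R KO arrays). The cells were selected by adherence to plastic and were over 80% pure by F4/80 and CD11b, per the labels' protocols. The labels name neither the receptor chain that was deleted nor the animals behind each sample. p-values therefore measure only how far these samples scatter, part of which may be technical. The deleted gene's mRNA has no probe here, so the arrays do not check the genotype. In a mixed preparation, fewer cells of a type and less RNA per cell cannot be told apart.

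The IL-4 receptor passes the signals of IL-4 and IL-13 to STAT6 and drives alternative activation of macrophages, the state found around tissue worms. miRNAs are short RNAs that repress mRNAs, chiefly by pairing of their seed, bases 2 to 8, with sites in the transcript. The comparison asked which miRNAs differ by genotype in both elicitations, rather than in the response to the worm alone.

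The arrays were of unequal quality. Mouse probes had a median net signal, foreground minus local background, of 14.7 to 32.8 intensity units, and blank or control spots had one of 6.69 to 9.18. Between 41 and 279 mouse probes per array stood above the 95th percentile of blank and control spots, called above blank here. That percentile itself varied from 12.6 to 111 units. Nematode wild type replicate 4 stood apart, with a correlation of 0.835 with the rest of its group against 0.936 to 0.977 for the other 13 arrays. The median net signal overlapped between genotypes, at 14.7 to 32.8 in wild type and 18.4 to 26.4 in IL-4R KO. Each slide carried arrays of 1 group, except slide 12, where the third wild type and the first IL-4R KO replicate of thioglycollate lay side by side. Slide and genotype can otherwise not be told apart. The number of arrays limits the precision of every value.

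Mature sequences are shown for called miRNAs, for relatives that share a seed or a precursor cluster with them, and for let-7i and miR-34a, whose main effects did not pass but which are described below by elicitation. Of 15 names looked up, 11 had a RefSeq entry, read from build GRCm38.p6. Capitals mark the seed, and sequences run 5′ to 3′.
miR-125b: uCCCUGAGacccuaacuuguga
miR-125a: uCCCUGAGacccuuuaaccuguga
miR-100: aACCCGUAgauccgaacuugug
miR-99a: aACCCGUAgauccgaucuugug
miR-223: uGUCAGUUugucaaauacccca
miR-22: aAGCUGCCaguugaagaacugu
miR-19b: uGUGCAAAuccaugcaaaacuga
miR-19a: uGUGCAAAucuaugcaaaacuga
miR-710: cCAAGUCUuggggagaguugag
let-7i: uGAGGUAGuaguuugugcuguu
miR-34a: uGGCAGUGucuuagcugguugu

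Seeds were shared in 3 pairs: miR-125b with miR-125a, miR-100 with miR-99a, and miR-19b with miR-19a. Counted from 1 at the 5′ end, miR-100 and miR-99a differ by A16U, and miR-19b and miR-19a by C11U. Compared base by base without gaps, miR-125b and miR-125a match at 15 of the first 22 bases and first differ at base 14. They are 22 and 24 bases long, so a count without gaps understates their likeness. The probes of each pair may therefore share some hybridisation. miR-125b comes from 2 loci on the plus strand. The mature sequence of Mir125b-1 lies at chr9:41581940-41581961, inside the span of the host gene Mir100hg and 50.5 kb from miR-100 at chr9:41531437-41531458. That of Mir125b-2 lies at chr16:77646279-77646300, 47.3 kb from miR-99a at chr16:77598940-77598961. miR-223 lies at chrX:96242884-96242905 within the annotated gene F630028O10Rik, and miR-22 at chr11:75463772-75463793 within its host gene Mir22hg. miR-19b also has 2 loci, in the miR-17-92 cluster at chr14:115044358-115044380 and on the minus strand at chrX:52741991-52742013. miR-710 lies at chr8:64514401-64514422 on the minus strand, with no annotated gene spanning it.

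Across both elicitations, 5 miRNAs were higher in wild type and 4 were higher in IL-4R KO. Higher in wild type were miR-125b, miR-422b, miR-223, miR-720 and miR-22. Higher in IL-4R KO were miR-710, miR-19b, miR-150 and miR-689. Their differences had a size of 0.59 to 1.501 on the log2 scale. The 9 calls were 2.62% of 343 probes (limma, additive fit with elicitation, adjusted p under 0.05), 1.46% in the wild type direction and 1.17% in the other.

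All 9 had the same sign in both elicitations after normalization, but 7 had the larger difference after nematode elicitation. Before normalization, the thioglycollate net signals of each miRNA higher in wild type overlapped between genotypes. For miR-223 they were 1037 to 2264 units in wild type and 1512 to 2208 in IL-4R KO. For miR-223, miR-422b, miR-720 and miR-22 the mean thioglycollate net signal was higher in IL-4R KO, so their matching sign rests on the scaling. For miR-125b the wild type values were 123, 94.8 and 73.0. Its IL-4R KO values were 109, 85.6 and 70.3, so wild type was slightly higher before scaling, with overlap. Within elicitations, 9 of them had an unadjusted limma p under 0.05 in nematode arrays and 3 in thioglycollate arrays. Over all 343 probes these shares were 12.5% and 4.08%, and the 9 were selected on the same values. A second test asked for a difference in each elicitation, by the larger of the 2 p-values where the signs matched. It called 0 of 343 probes (limma, adjusted p of 1 for all of them), and 6 probes (1.75%) had an unadjusted p under 0.05 in each elicitation with the same sign. These were miR-125b, miR-710, miR-19b, miR-200c, let-7i and miR-329. For 2 of them the values lie mostly below blank: miR-329 was above blank on no nematode array, and miR-200c on no wild type array and 1 nematode IL-4R KO array. No probe had such p-values with opposite signs. Of all mouse probes, 57.7% had the same sign in both elicitations, and 57.8% of the 230 above blank on at least 3 arrays. The differences in the 2 elicitations, which share no arrays, correlated over the 343 probes with r = 0.353 (Pearson) and rho = 0.248 (Spearman). Probes on an array share its labelling and scaling and are not independent replicates.

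**Figure D1:**
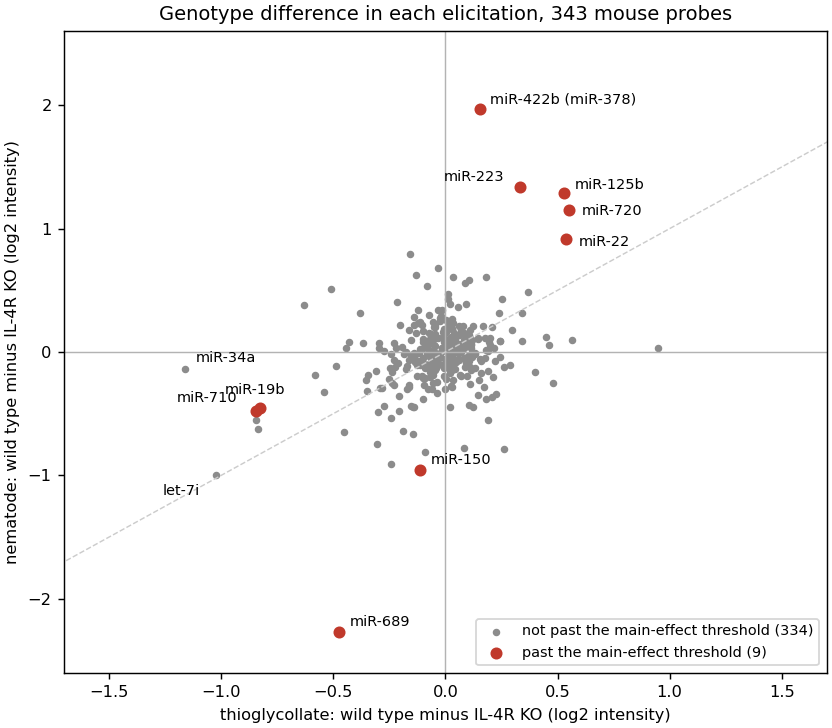
Each point is a mouse probe, placed by its wild type minus IL-4R KO difference in log2 intensity in thioglycollate arrays (horizontal) and in nematode arrays (vertical), with red points past the main-effect threshold and a dashed line of equal difference. All 9 red points lie in quadrants of matching sign, and miR-710 and miR-19b are the 2 with the larger thioglycollate difference.

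miR-125b, which is made in haematopoietic progenitors and myeloid cells and targets several regulators of differentiation, gave the smallest p. In thioglycollate arrays its log2 intensity was 7.54, 7.85 and 7.39 in wild type and 7.30, 6.93 and 6.97 in IL-4R KO. After nematode elicitation it was 7.65, 7.85, 7.97 and 8.24 in wild type and 6.47, 6.68, 6.70 and 6.70 in IL-4R KO. After normalization every wild type array was above every IL-4R KO array, also across elicitations. The probe was above blank on all 14 arrays. Its net signal was 73.0 to 276 intensity units in wild type and 39.9 to 109 in IL-4R KO. Net signals, taken before normalization, overlapped in thioglycollate arrays, at 73.0 to 123 in wild type and 70.3 to 109 in IL-4R KO. In nematode arrays they did not, at 153 to 276 and 39.9 to 68.4.

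Adjusted for elicitation, miR-125b was 1.95-fold higher in wild type (log2 difference 0.96, SE 0.14, 95% interval 0.65 to 1.27, limma adjusted p = 0.00408). An exact permutation of genotype within elicitation, two-sided over 1400 arrangements, gave 0.00143, the smallest p it allows. The difference was 0.53 (SE 0.16, limma adjusted p = 0.287) in thioglycollate arrays and 1.29 (SE 0.14, limma adjusted p = 0.000136) in nematode arrays. The nematode difference was larger by 0.77 (SE 0.21), an interaction that did not pass (limma adjusted p = 0.211). Between the thioglycollate arrays on slide 12 it was 0.09. miR-125b stayed called when any of the 14 arrays was left out, with an adjusted p of at most 0.0162. It was not called in 3 of 18 other settings, median scaling, no normalization and the replicate block, with an adjusted p up to 0.0817.

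No other member of the miR-125b clusters passed. miR-100, from the same stretch of chromosome 9, reached the blank percentile on 3 wild type arrays and no IL-4R KO array. Its log2 intensity in thioglycollate arrays was 6.09, 5.99 and 6.08 in wild type against 5.98, 5.98 and 5.94 in IL-4R KO. On the nematode arrays they were 6.63, 6.85, 6.46 and 6.02 against 5.98, 5.90, 5.94 and 5.91. After normalization the genotypes did not overlap in either elicitation, yet the thioglycollate values differ little. No IL-4R KO array was above blank, so no fold is given. Over both elicitations the miR-100 difference was 0.36 (SE 0.12, limma adjusted p = 0.174; exact permutation p = 0.00143), on values mostly below blank. Groups that did not overlap in either elicitation after normalization, in 1 direction, were found for 3 of 343 probes (0.875%), namely miR-125b, miR-100 and miR-710. For 1 probe (0.292%), miR-551b, named after its values were seen, the groups were apart in opposite directions (0.15 and -0.35). miR-99a was above blank on 2 wild type arrays and 1 IL-4R KO array, and its main effect did not pass (limma adjusted p = 0.367). After nematode elicitation it was above blank on 2 of 4 wild type and no IL-4R KO arrays, so no fold is given. The nematode groups overlapped, with 6.03 on wild type replicate 4 and 6.16 on IL-4R KO replicate 2. let-7c, which shares the chromosome 16 cluster, gave 0.14 (SE 0.19).

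miR-125a, with the seed of miR-125b, pointed the other way and did not pass (-0.45, SE 0.15, limma adjusted p = 0.181). Its log2 intensity was 6.01 to 7.08 in wild type, with a median of 6.71, and 6.80 to 7.47 in IL-4R KO, with a median of 7.13. miR-99b, from the miR-125a cluster on chromosome 17, gave -0.14 (SE 0.08). The 7 probes of these host clusters (miR-99, miR-100, miR-125 and let-7 members) held 1 call, 4 positive and 3 negative values, and a median of 0.14 against 0.00 over all mouse probes. Calls made up 2.62% of all mouse probes.

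**Figure D2:**
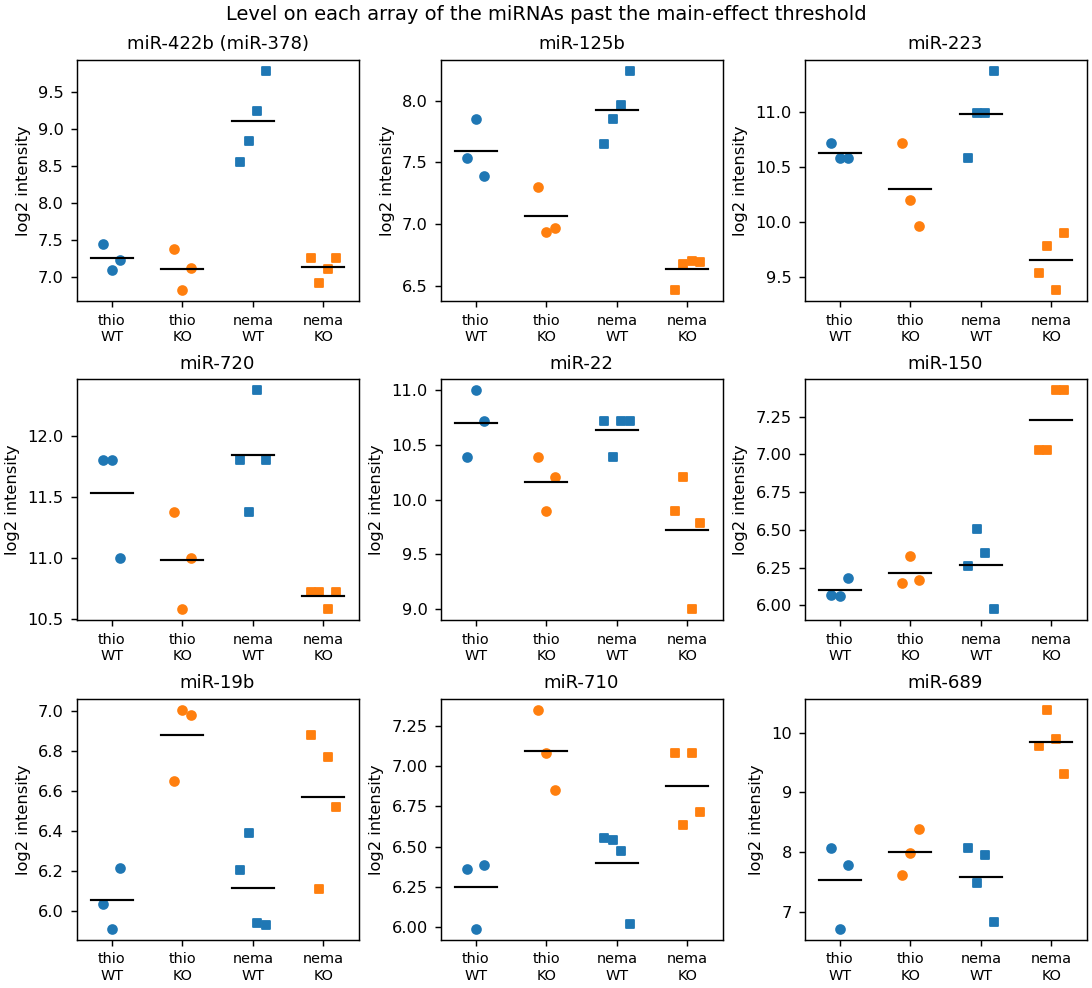
Log2 intensity of the 9 miRNAs past the main-effect threshold on each of 14 arrays, with blue for wild type, orange for IL-4R KO, circles for thioglycollate (thio), squares for nematode (nema) and a black bar for each group mean. miR-125b and miR-710 separate the genotypes in both elicitations, whereas miR-422b, miR-150 and miR-689 separate them on nematode arrays and overlap on thioglycollate arrays.

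miR-223, an abundant miRNA of granulocytes and monocytes, and miR-22, a miRNA expressed through the myeloid lineage, were both among the brightest probes. miR-223 had a log2 intensity of 10.72, 10.58 and 10.58 in thioglycollate wild type and 10.72, 10.20 and 9.96 in thioglycollate IL-4R KO. After nematode elicitation the values were 10.58, 10.999, 10.999 and 11.38 in wild type and 9.53, 9.78, 9.38 and 9.90 in IL-4R KO. The genotypes overlapped after thioglycollate and were apart after nematode elicitation. Over all probes, groups were apart for 11.1% in thioglycollate and 9.04% in nematode arrays. The main effect of miR-223 was 0.91 (SE 0.19, limma adjusted p = 0.0266; exact permutation p = 0.00571), or 1.88-fold. It was made of 0.33 in thioglycollate arrays (95% interval -0.13 to 0.80) and 1.34 in nematode arrays (0.94 to 1.74). The difference between the elicitations, 1.01 (SE 0.28), did not pass (limma adjusted p = 0.211). On slide 12 miR-223 was lower in wild type by 0.14.

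miR-22 had a log2 intensity of 10.39, 10.999 and 10.72 in thioglycollate wild type and 10.39, 9.90 and 10.20 in IL-4R KO. On nematode arrays they were 10.72, 10.39, 10.72 and 10.72 in wild type and 9.90, 10.20, 8.996 and 9.78 in IL-4R KO. The thioglycollate groups met at 10.39, a shared rank value, and the nematode groups did not overlap. miR-22 was 1.69-fold higher in wild type (log2 difference 0.76, SE 0.17, limma adjusted p = 0.0354; exact permutation p = 0.00286). Its differences in thioglycollate and nematode arrays, 0.54 (SE 0.26) and 0.92 (SE 0.22), were the closest to each other among the 5 miRNAs higher in wild type. On slide 12 it was higher in wild type by 0.34.

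miR-720, an array name for a sequence since assigned to a tRNA fragment, took rank 1 to 7 among the 1309 named miRNA probes of an array. Its log2 intensity was 11.80, 11.80 and 10.999 in thioglycollate wild type and 11.38, 10.58 and 10.999 in IL-4R KO. The nematode arrays gave 11.80, 11.38, 12.37 and 11.80 in wild type and 10.72, 10.72, 10.58 and 10.72 in IL-4R KO. It was 1.86-fold higher in wild type (log2 difference 0.89, SE 0.19, limma adjusted p = 0.0266; exact permutation p = 0.00429). Quantile scaling gives equal ranks equal values, so miR-720 took 6 distinct values over 14 arrays and miR-22 took 7. Differences at these ranks are steps between ranks rather than graded intensities. On slide 12 miR-720 was lower in wild type by 0.38.

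Of 14 myeloid and macrophage probes, 2 were called, miR-223 and miR-22, both higher in wild type, against calls for 2.62% of all mouse probes. The other 12 did not pass, and 9 of the 14 were negative, with a list median of -0.11. The list was chosen with earlier results of these data known, so its count is no independent evidence. miR-142-3p, specific to haematopoietic cells, gave -0.62 (SE 0.35, limma adjusted p = 0.569). miR-21 held the top rank on all 6 thioglycollate arrays, so that its difference there is 0 by construction, and gave -0.03 (SE 0.13) overall. The summed level of the myeloid list, which includes miR-223 and miR-22, was 13923 to 14862 linear units on thioglycollate arrays. It was 10794 to 14026 on nematode wild type arrays and 9386 to 12969 on nematode IL-4R KO arrays. The neutrophil and granulocyte list had 1 of 5 members past the threshold, the same miR-223. Its summed level was 3057 to 3682 units in nematode wild type and 2292 to 3449.9 in nematode IL-4R KO. In the thioglycollate groups it was 3090.2 to 3385 and 2918 to 3949. This sum includes miR-223 itself, so it is no separate evidence on the miR-223 difference. The other members gave nematode differences of -0.91 (miR-142-3p), -0.54 (miR-27a), 0.01 (miR-145) and 0.05 (miR-143). The part of neutrophils and granulocytes in the miR-223 difference was not tested. miR-143, a member of that list, was above blank on no nematode array.

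miR-422b, the array's older name for miR-378, which is encoded within the PGC-1β gene Ppargc1b, had the largest difference among the miRNAs higher in wild type, but it was not shared. After thioglycollate its log2 intensity was 7.46, 7.10 and 7.23 in wild type and 7.38, 6.83 and 7.13 in IL-4R KO. After nematode elicitation it was 8.55, 8.85, 9.25 and 9.78 in wild type and 7.26, 6.92, 7.12 and 7.26 in IL-4R KO. Only the nematode wild type arrays stood apart from the other 3 groups. The main effect of 1.19 (SE 0.29, limma adjusted p = 0.0469; exact permutation p = 0.00714) averaged 0.15 (95% interval -0.40 to 0.70) and 1.97 (1.49 to 2.44). The interaction passed (1.82, SE 0.33, limma adjusted p = 0.0224). Interactions passed for 2 of 343 probes (0.583%), miR-422b and miR-34a. The star arm, called miR-378 on this array, was above blank on 4 of 14 arrays and gave 0.08 (SE 0.09, limma adjusted p = 0.731).

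miR-710 was 1 of the 2 called miRNAs whose genotypes did not overlap in either elicitation after normalization, as was so for 0.875% of 343 probes. The level (log2 intensity) was 6.36, 5.99 and 6.39 in thioglycollate wild type and 7.35, 7.08 and 6.85 in IL-4R KO. The nematode arrays gave 6.55, 6.54, 6.47 and 6.02 in wild type and 7.08, 6.64, 7.08 and 6.72 in IL-4R KO. After normalization every IL-4R KO array was above every wild type array. It was 1.56-fold higher in IL-4R KO (log2 difference -0.64, SE 0.13, limma adjusted p = 0.0266; exact permutation p = 0.00143). The difference was -0.85 (SE 0.19) in thioglycollate and -0.48 (SE 0.16) in nematode arrays, and -0.96 on slide 12. miR-710 was above blank on 7 of 7 IL-4R KO arrays and on 3 of 7 wild type arrays. Its net signal was 11.7 to 80.8 units in wild type and 51.1 to 110 units in IL-4R KO. Before normalization the nematode net signals overlapped, at 13.4 to 80.8 in wild type and 51.1 to 104 in IL-4R KO. Thioglycollate net signals did not, at 11.7 to 29.8 and 59.8 to 110.

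miR-19b, a member of the miR-17-92 cluster, was also higher in IL-4R KO in both elicitations. Thioglycollate arrays gave log2 intensities of 6.03, 5.91 and 6.22 in wild type and 6.65, 7.01 and 6.98 in IL-4R KO. Nematode-elicited cells gave 6.21, 6.39, 5.94 and 5.93 in wild type and 6.88, 6.11, 6.77 and 6.52 in IL-4R KO. The thioglycollate groups were apart, and nematode IL-4R KO replicate 2 fell within the wild type range. The main effect of miR-19b was -0.61 (SE 0.13, limma adjusted p = 0.0266; exact permutation p = 0.00429), or 1.53-fold. It was -0.83 (SE 0.19) and -0.45 (SE 0.17) in thioglycollate and nematode arrays, and -0.43 on slide 12. It was above blank on 6 of 7 IL-4R KO arrays but on 2 of 7 wild type arrays, so the wild type level lies near the blank spots.

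Its seed relative miR-19a gave -0.16 (SE 0.14, limma adjusted p = 0.642), and was negative in both elicitations. Of 14 probes for the miR-17-92 and paralog clusters, which are linked to proliferation, 1 passed (miR-19b), 11 were negative and 8 were negative in both elicitations. The median of the list was -0.15, and 2.62% of all mouse probes were called. miR-106b gave -0.50 (SE 0.19, limma adjusted p = 0.264), with -0.09 after thioglycollate and -0.81 after nematode elicitation. miR-17-5p gave -0.44 (SE 0.20, limma adjusted p = 0.442).

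miR-150, which is abundant in mature lymphocytes and low in most macrophages, was higher in IL-4R KO through the nematode arrays. Its log2 intensity was 6.07, 6.06 and 6.18 in thioglycollate wild type and 6.15, 6.33 and 6.17 in IL-4R KO. After nematode elicitation it was 6.26, 6.51, 6.34 and 5.97 in wild type and 7.03, 7.03, 7.42 and 7.42 in IL-4R KO. The 4 nematode IL-4R KO arrays were above the other 10. The main effect was -0.59 (SE 0.15, limma adjusted p = 0.0469; exact permutation p = 0.00429), from -0.11 (SE 0.15) and -0.96 (SE 0.13). miR-150 was above blank on all 4 nematode IL-4R KO arrays, 2 of 4 nematode wild type arrays and 1 of 3 arrays in each thioglycollate group, so the levels it is set against lie near blank. The interaction of miR-150 was -0.84 (SE 0.19, limma adjusted p = 0.0935). Of 7 lymphocyte probes, miR-150 was the 1 past the threshold, against 2.62% of all mouse probes, and the list median was 0.00. The summed level of that list was 559 to 618 units in nematode IL-4R KO and 464 to 551 in nematode wild type. In the thioglycollate arrays it was 520 to 621. This sum includes miR-150 itself, so it is no separate evidence on the miR-150 difference. On nematode IL-4R KO arrays 4 of the 7 markers were never above blank (miR-151, miR-181b, miR-181c and miR-28). Their part in the miR-150 difference was not tested.

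miR-689 had the largest main effect of the 9 and the largest SE. The log2 intensities were 8.07, 6.71 and 7.79 in thioglycollate wild type and 7.62, 7.99 and 8.39 in IL-4R KO, which overlap. In nematode arrays it was 8.07, 7.47, 7.94 and 6.82 in wild type and 9.78, 10.39, 9.90 and 9.31 in IL-4R KO, which do not. The main effect was -1.501 (SE 0.35, limma adjusted p = 0.0369; exact permutation p = 0.00714), or 2.83-fold higher in IL-4R KO. The nematode difference was -2.27 (SE 0.34) and the thioglycollate difference -0.48 (95% interval -1.33 to 0.38). The interaction of -1.79 (SE 0.52) did not pass (limma adjusted p = 0.217). On slide 12 the sign was turned for miR-689 (0.17) and miR-150 (0.03), as it was for miR-422b (-0.14), and 4 of the 9 called miRNAs kept their main-effect sign there.

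**Figure D3:**
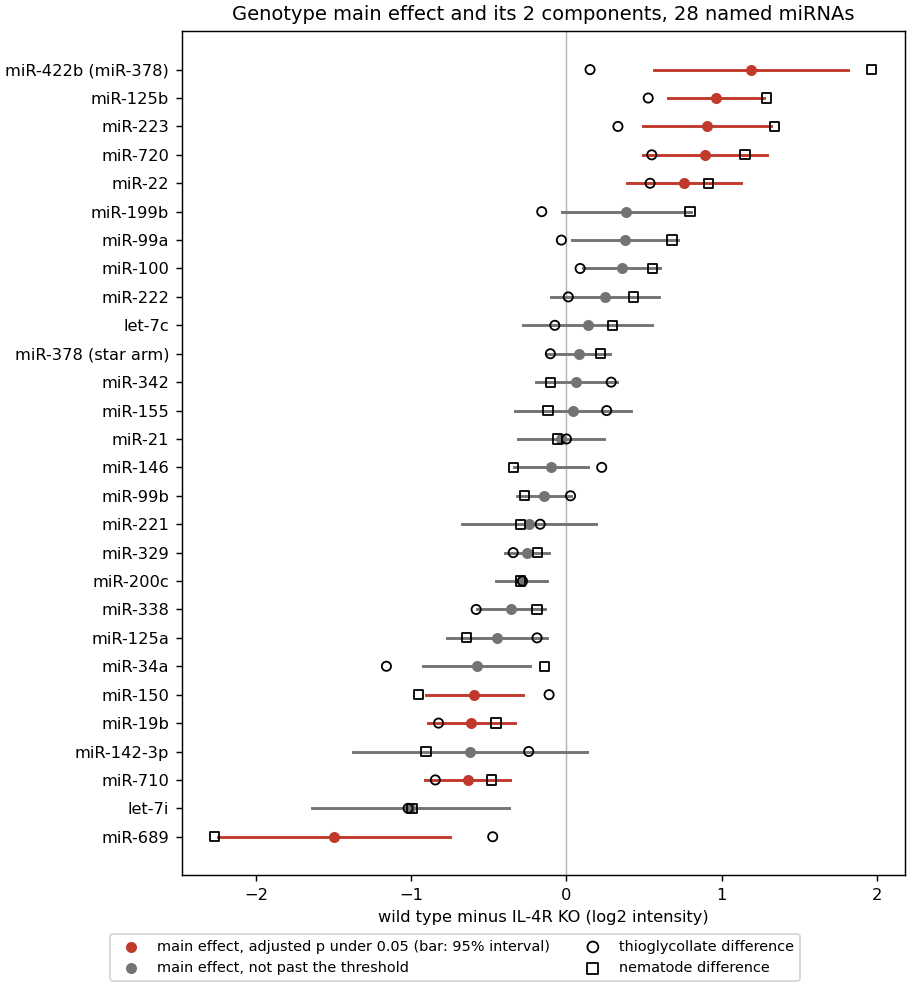
Wild type minus IL-4R KO difference in log2 intensity for the 28 named miRNAs, with filled points and bars for the main effect and its 95% interval (red past the threshold) and open circles and squares for the thioglycollate and nematode differences. The open symbols lie far apart for miR-422b, miR-689 and miR-34a and nearly coincide for let-7i. miR-200c was above blank on no wild type array, so its symbols are values near the blank level.

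The 5 miRNAs nearest to the threshold without passing it were all higher in IL-4R KO. let-7i, a let-7 member that represses TLR4 in human bile duct cells, had nearly equal differences in the 2 elicitations. Levels in log2 intensity were 7.27, 7.35 and 8.17 in thioglycollate wild type and 8.55, 8.36 and 8.94 in IL-4R KO. In nematode arrays it was 7.68, 7.99, 7.44 and 6.13 in wild type and 8.68, 7.41, 8.19 and 8.94 in IL-4R KO. The thioglycollate groups were apart, and nematode IL-4R KO replicate 2 lay inside the wild type range. The let-7i difference was -1.01 (SE 0.29, 95% interval -1.64 to -0.37, limma adjusted p = 0.104; exact permutation p = 0.0114), with -1.02 after thioglycollate and -0.996 after nematode elicitation. Its interaction was 0.03 with an interval of -1.31 to 1.36, which does not show that the elicitations were alike. Of 8 let-7 family probes none passed, 7 were negative and 5 were negative in both elicitations, with a median of -0.17. Calls made up 2.62% of all mouse probes.

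miR-34a, a transcriptional target of p53, differed after thioglycollate, and its nematode levels lay near blank. Its log2 intensity was 6.33 to 6.42 in the 3 thioglycollate wild type arrays and 7.38 to 7.79 in the 3 thioglycollate IL-4R KO arrays. In nematode arrays it was 5.98 to 6.22 in wild type and 5.92 to 6.37 in IL-4R KO. The thioglycollate difference was -1.16 (SE 0.13, limma adjusted p = 0.000339, the only probe past the threshold in that elicitation, 0.292%), and the nematode difference -0.14 (95% interval -0.39 to 0.11). It was above blank on 3 of 3 thioglycollate IL-4R KO arrays, 1 of 3 thioglycollate wild type arrays and 1 of 4 nematode arrays of each genotype. A nematode difference below the blank level would not be detectable. The interaction passed (1.02, SE 0.17, limma adjusted p = 0.0224), and the main effect did not (-0.58, SE 0.16, limma adjusted p = 0.0868).

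The other 3 lay close to the blank spots. miR-200c, an epithelial miRNA, had measured means of 5.96 in wild type and 6.25 in IL-4R KO (limma adjusted p = 0.0644). It was above blank on 3 of 7 IL-4R KO arrays and no wild type array, so no fold is given. Among the 10 epithelial probes none passed, against calls for 2.62% of all mouse probes, and the median was 0.00. miR-329, of the Dlk1-Dio3 region, had measured means of 5.96 and 6.21 (limma adjusted p = 0.0611) and was above blank on 2 IL-4R KO arrays and no wild type array. miR-338 gave -0.36 (SE 0.10, limma adjusted p = 0.0998) and was above blank on 1 array from wild type mice and 5 from IL-4R KO mice.

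At an unadjusted limma p under 0.05, 35 probes (10.2%) differed, 10 (2.92%) of them higher in wild type and 25 (7.29%) higher in IL-4R KO. All 25 of the latter and 9 of the former had the same sign in both elicitations, against 57.7% of all mouse probes. The 35 probes were selected on the main effect, which combines both differences, so the selection itself favours matching signs. Of the 10 higher in wild type, 6 were above blank on all 14 arrays, against 3 of the 25 higher in IL-4R KO. The median level over the former was 7.51 and over the latter 6.65 in log2 intensity. The part of this difference in brightness in the unequal counts was not tested.

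The miRNAs linked to IL-4 or alternative activation had 2 of 8 probes higher in wild type, miR-422b and miR-223, against 1.46% of all mouse probes. The list was drawn up with results of these data known, so its count is no independent evidence. Its median was 0.08, and miR-342 (0.06, SE 0.12) and miR-145 (0.09, SE 0.06) were among the 6 that did not pass. Of 9 inflammatory miRNAs none passed, against calls for 2.62% of all mouse probes, and the median was 0.04. miR-155, induced by Toll-like receptors, had levels of 6.19 to 7.59 in wild type and 6.54 to 7.26 in IL-4R KO, and gave 0.04 (SE 0.17, 95% interval -0.33 to 0.42). miR-146, a brake on Toll-like receptor signalling, gave -0.10 (SE 0.11), with 0.23 after thioglycollate and -0.34 after nematode elicitation. miR-221 and miR-222, from a shared cluster, gave -0.24 (SE 0.20) and 0.25 (SE 0.16).

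The 5 probes of the miR-23, miR-27 and miR-24 clusters, all above blank on all 14 arrays, were negative in both elicitations, with a median of -0.28. None passed, against calls for 2.62% of all mouse probes. miR-27a gave -0.41 (SE 0.17, limma adjusted p = 0.361) and miR-23a -0.37 (SE 0.23). The hypoxia miRNA miR-210 gave -0.25 (SE 0.14), with -0.24 and -0.25 in the 2 elicitations. The miR-15/16, miR-29 and miR-30 families had medians of -0.07, -0.14 and -0.07 and no call among 8, 3 and 7 probes. The 8 miR-34 and p53-linked probes had a median of 0.06 and no call. miR-30e (-0.71, SE 0.28, limma adjusted p = 0.31) and miR-16 (-0.32, SE 0.12, limma adjusted p = 0.253) had the largest values of their families.

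The lists of several other cell types held no call. With 2.62% of all mouse probes called, that says little in lists this short. The erythroid, endothelial, stromal, and muscle and liver lists had medians of 0.06, 0.09, 0.08 and -0.02 and no call among 3, 2, 13 and 4 probes. miR-199b, a stromal miRNA, gave 0.39 (SE 0.19, limma adjusted p = 0.533), with -0.16 after thioglycollate. After nematode elicitation its measured means were 6.83 in wild type and 6.03 in IL-4R KO. It exceeded blanks there on 3 of 4 wild type arrays but no IL-4R KO array, so no fold is given. The summed stromal level was 914 to 1138 units in nematode wild type and 863 to 988 in nematode IL-4R KO, and 11 of the 13 stromal markers were never above blank in the latter group. In thioglycollate arrays it was 945 to 959 and 921 to 1029.7.

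**Figure D4:**
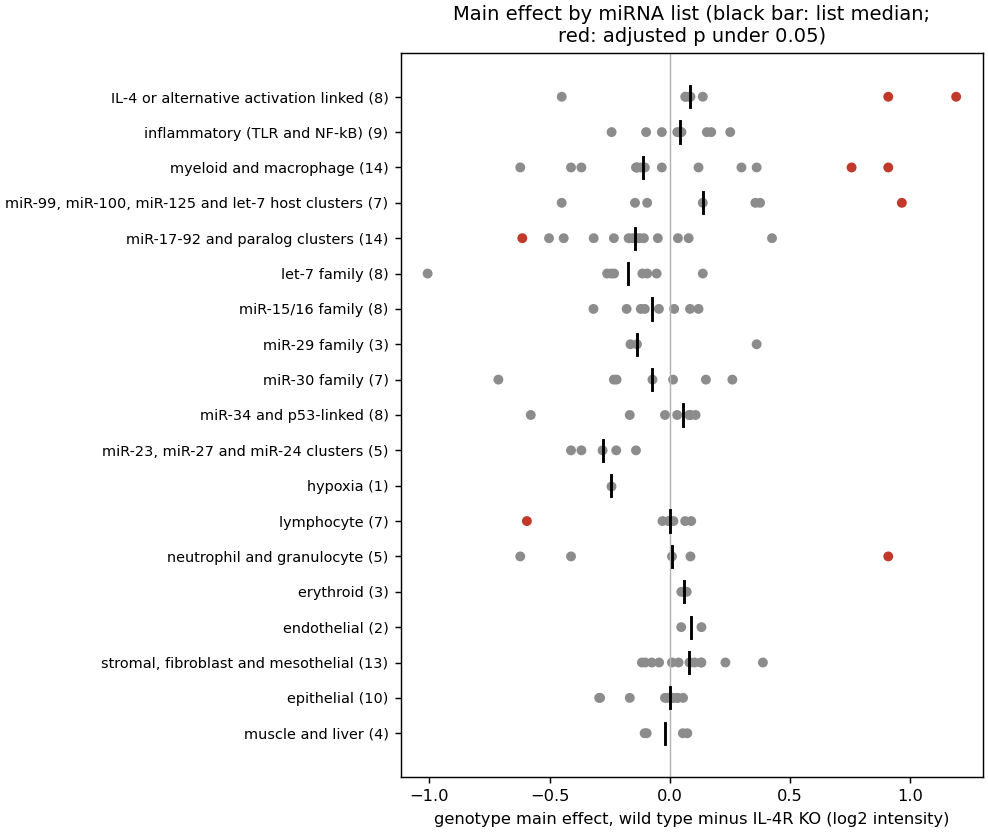
Genotype main effect in log2 intensity of every member of the 19 miRNA lists, with the number of probes in parentheses, red points past the threshold and a black bar at each list's median. The medians lie between -0.28 and 0.14, and the red points sit far from the medians of their own lists.

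The number of calls rested on individual arrays. Without thioglycollate wild type replicate 2, thioglycollate IL-4R KO replicate 2, nematode wild type replicate 4 or nematode IL-4R KO replicate 1 it fell from 9 to 1, and the call left was miR-125b each time. It was 2 without nematode IL-4R KO replicate 3 or 4, 3 without nematode wild type replicate 3, 4 without nematode wild type replicate 1, and 16 without nematode IL-4R KO replicate 2. miR-710 kept its call without any 1 of 9 arrays, miR-223, miR-720 and miR-22 without 7, miR-19b without 5, miR-689 without 4, and miR-422b and miR-150 without 3. With median scaling no call was left, and with no normalization none of the 5 miRNAs higher in wild type passed. Over those and the other 16 settings the adjusted p was at most 0.0817 for miR-125b and 0.436 for miR-720. All 9 kept their sign without each of the 14 arrays, and their adjusted p then reached at most 0.125 (miR-422b). The lost calls had adjusted p-values up to 0.0681 for miR-710 and miR-720, 0.0739 for miR-223 and miR-19b, 0.0948 for miR-22, 0.102 for miR-689 and 0.116 for miR-150.

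**Figure D5:**
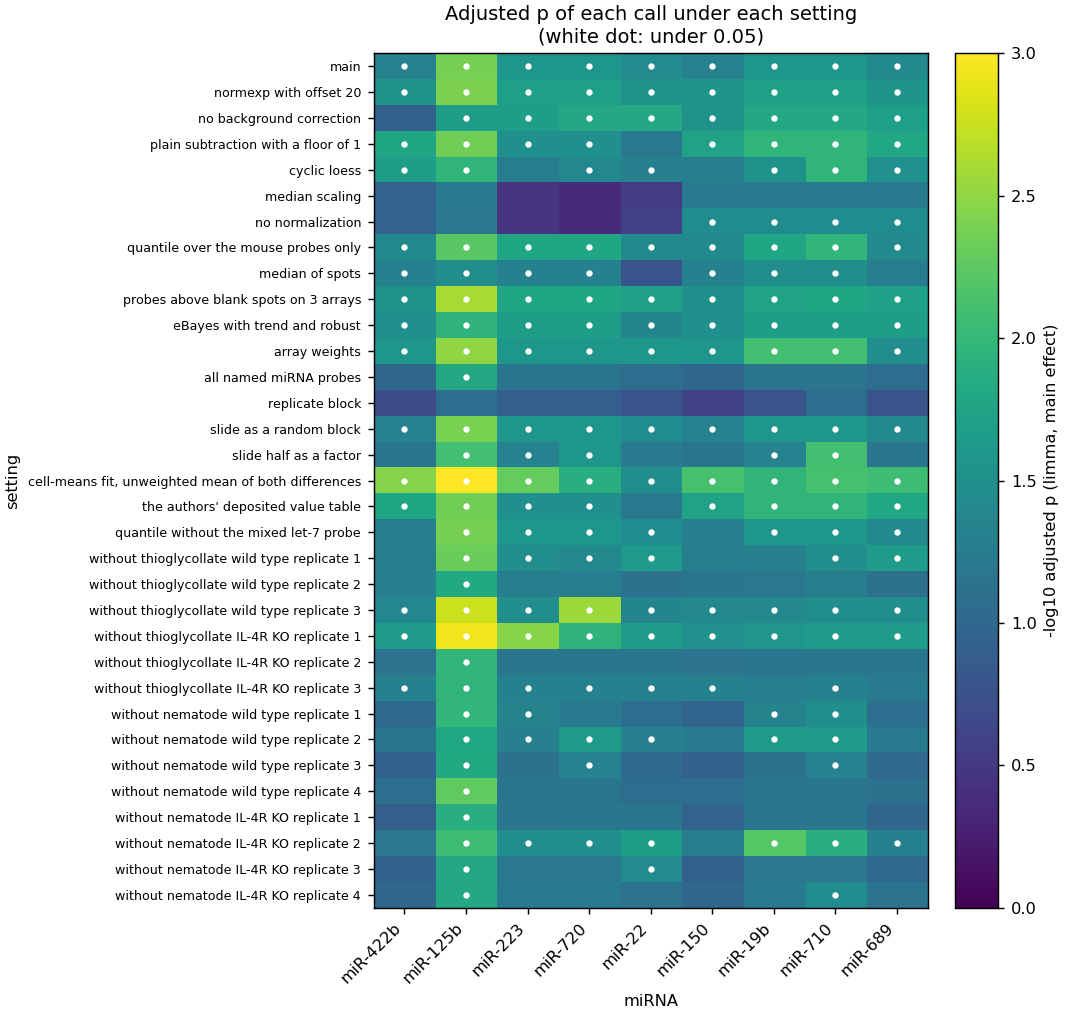
Main-effect adjusted p, as -log10 in colour, of the 9 called miRNAs (columns) in the main analysis, in 18 other settings and with each of the 14 arrays left out (rows), with a white dot where it is under 0.05. The miR-125b column has a dot in every leave-one-out row, and the columns of miR-422b and miR-150 have the fewest.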

How the data were processed

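MicroRNA was measured on 14 one-colour arrays (dye Hy3), each with 343 mouse probes in 3 spots. The deposited slide files give, per the file headers, each spot's foreground and local background intensity on a linear scale, neither subtracted nor normalized. The authors' deposited value table held foreground minus background (all 72576 values within 0.001, column medians 10.5 to 19.1, linear, uncentred). No source used here names the scanner software.

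Here, foreground intensities were corrected for background by normexp (offset 50) and taken to log2. The 3 spots of each probe were averaged, followed by quantile normalization over 1309 named miRNA probes. Fold changes are compressed by the offset, for dim probes, and by the quantile step. Summed list levels are linear values after these steps.

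limma 3.58.1 (R 4.3.3) fitted genotype plus elicitation, two-sided, with Benjamini-Hochberg adjustment over 343 probes and a threshold of 0.05. A fit with 1 mean per group gave differences in each elicitation and the interaction. The fits were tested on simulated data. Exact permutation checked the named miRNAs. No fold is given for a miRNA below blank on all arrays of a group.

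Named were all miRNAs past the threshold (up to 12 per direction), those without overlap in both elicitations, 20 set miRNAs and the 5 nearest the threshold, 28 in all. Members, lists and this rule were chosen with earlier results of these data known. Other background corrections, normalizations, filters, fits and left-out arrays were tried as alternatives. Replicate numbers showed little sign of pairing samples (7 pairs, correlations -0.13 to 0.29), though so few pairs cannot settle it.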

Additional observations from a re-analysis of the deposited data

Results flagged for a closer look

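Within groups of 4 arrays, 4 of 56 tested groups held an array whose gap to its nearest neighbour exceeded Dixon's 95% critical ratio to the group's range, and chance gives about 1 in 20. For miR-125b, nematode IL-4R KO replicate 1 was low (6.47, against 6.68 to 6.70 on the other 3), with a ratio of 0.897. For miR-710, nematode wild type replicate 4 was low (6.02, against 6.47 to 6.55), with a ratio of 0.853. For miR-720 in nematode IL-4R KO (replicate 3, 10.58 against 10.72) and miR-22 in nematode wild type (replicate 2, 10.39 against 10.72) the ratio was 1, because the other 3 arrays shared a rank.

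The genotype difference differed between elicitations for 2 miRNAs by the interaction test. For miR-422b it was larger in nematode arrays by 1.82 on the log2 scale (limma adjusted p = 0.0224). For miR-34a the nematode minus thioglycollate value was 1.02 (limma adjusted p = 0.0224), with the difference seen in thioglycollate arrays.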

How the results depend on the processing

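The count of main-effect calls, 9, was 0 with median scaling, 0 with the replicate block, 1 with all named miRNA probes in the fit, 5 with the array's place on its slide as a factor and 17 with array weights. With no normalization it was 6, 0 of them higher in wild type, against 5 of 9. With 1 array left out it ranged from 1 to 16. The test of a difference in both elicitations called 0 in all 18 settings and all 14 leave-one-out fits. Slide as a random block gave the same 9 calls, but its estimated slide correlation was -0.0019, so it nearly repeats the main fit. It cannot separate slide from genotype, because each slide other than slide 12 holds 1 group. Omitting 1 probe for mixed let-7 members from the quantile step, a setting chosen after seeing the data, gave 7, without miR-422b and miR-150. All 9 called miRNAs kept their main-effect sign in the 18 settings. miR-125b, miR-710 and miR-19b stayed called in 15 of them, and miR-22 in 10. The 18 are not independent: plain background subtraction and the authors' deposited value table gave the same calls. miR-125b did not pass with median scaling, with no normalization or with the block, and over all settings its adjusted p was at most 0.0817. The replicate numbers showed little sign of pairing the samples: 3 of 7 pairs correlated above 0.1, and 1 sample pair correlated best with its own number. So few pairs cannot settle whether the numbers pair samples. On slide 12 the sign turned for miR-422b (-0.14), miR-223 (-0.14), miR-720 (-0.38), miR-689 (0.17) and miR-150 (0.031). Signs also turned among uncalled miRNAs: with median scaling and no normalization for miR-155 (-0.053 and -0.060), let-7c (-0.20 and -0.20), miR-342 (-0.062 and -0.069) and miR-222 (-0.10 and -0.11), and with array weights for let-7c (-0.026). With an array left out, values ran from -0.055 to 0.20 for miR-155, -0.12 to 0.070 for miR-21, -0.0055 to 0.24 for let-7c and -0.037 to 0.12 for miR-342. The causes of these changes were not tested. Dim probes, and the rank steps of the brightest, limit what the arrays resolve.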
